A study of Mus musculus with 59 samples.

Results

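The genes named Tex (testis expressed), Spata (spermatogenesis associated) and Tssk (testis-specific serine kinase) were followed in single epiblasts of mouse embryos at E6.25, the pluripotent tissue that gives rise to the embryo proper and from which germ cells are set aside. Members were the protein-coding genes whose symbol begins with Tex, Spata or Tssk followed by a digit and that had a listed count in any epiblast. There were 58 members, 26 Tex, 26 Spata and 6 Tssk genes, of 22134 genes listed, and each was read through the transcript with its highest mean count. A further 15 genes with such names had no count in any epiblast and were Spata16, Spata19, Spata31d1c, Tex13a, Tex13c1, Tex13c2, Tex13c3, Tex28, Tex33, Tex36, Tex37, Tex44, Tex46, Tex48 and Tex50.

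RNA-seq compared 4 control (genotype G9a+/+ in the labels) with 4 Ehmt2 knockout epiblasts and 3 control (Ezh+/+) with 3 Ezh2 knockout epiblasts, all on a mixed background and taken from crosses of heterozygotes. Ehmt2 encodes G9a, which dimethylates lysine 9 of histone H3, and Ezh2 encodes the Polycomb enzyme that trimethylates lysine 27. The study's text also counts heterozygous embryos among controls, so a control may carry 1 mutant allele. Each library was amplified from the RNA of 1 epiblast, and the comparisons ask whether loss of either enzyme alters transcripts that are named for the testis.

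These names record where a gene was first noticed and do not define a pathway. Some members act in male meiosis, in transposon silencing or in the shaping of sperm, and are used almost only in germ cells. Others serve ribosome assembly, the endoplasmic reticulum or immune signalling in most cells. Many genes of the germ line are held silent in the early embryo by DNA methylation and repressive histone marks, which is why they are often followed when such marks are lost.

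Libraries held 30161171 to 68464895 listed transcript counts. Ehmt2 replicates 4 stood apart from the other replicates in depth and listed the fewest transcripts. They listed 57926 in the control and 56476 in the knockout, against 59566 or more elsewhere. The Ehmt2 fit carried a planned term for that pair, taken from the comparison sets of the study's source data. The 8 epiblast markers were above 0 in every library and summed to 2550 to 2930 CPM (counts scaled to a common library total, the usual edgeR unit) in Ehmt2 controls, 1550 to 2330 CPM in Ehmt2 knockouts and 2000 to 2660 CPM in the Ezh2 cross. The 5 primordial germ cell markers summed to 5.89 to 17.1 CPM, with Prdm14 or Nanos3 at 0 in every library, and their part in the results was not tested. Visceral endoderm markers summed to 1240 CPM in Ezh2 control 2 and 2800 CPM in Ezh2 knockout 1, against 8.84 to 83.9 CPM in the other libraries. Transcript of the targeted gene was lower in the knockouts, at 3.29 to 9.78 CPM against 10.5 to 34 CPM for Ehmt2 and at 11.4 to 16 CPM against 51.6 to 108 CPM for Ezh2. It was not absent, and whether the counted transcript spans the deleted part is not given in the sources used here.

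The members fell into a silent and an expressed group. Of the 58, 33 (56.9%) had a mean under 10 counts over the 7 controls and are called silent here, against 26.4% of the protein-coding genes listed. The split was drawn from these counts, so it describes the genes and was not tested. Silent were 12 of 26 Tex, 16 of 26 Spata and 5 of 6 Tssk genes. The genes nearest the boundary were Tssk4 and Tex101 (8 each), Spata21 (8.14) and Tex13b (9.29 counts) just under it, and Tssk5 (10.1), Tex16 (10.9) and Tex12 (14.7 counts) just over it. The heat map of all members by epiblast shows this order.

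**Figure D1:**
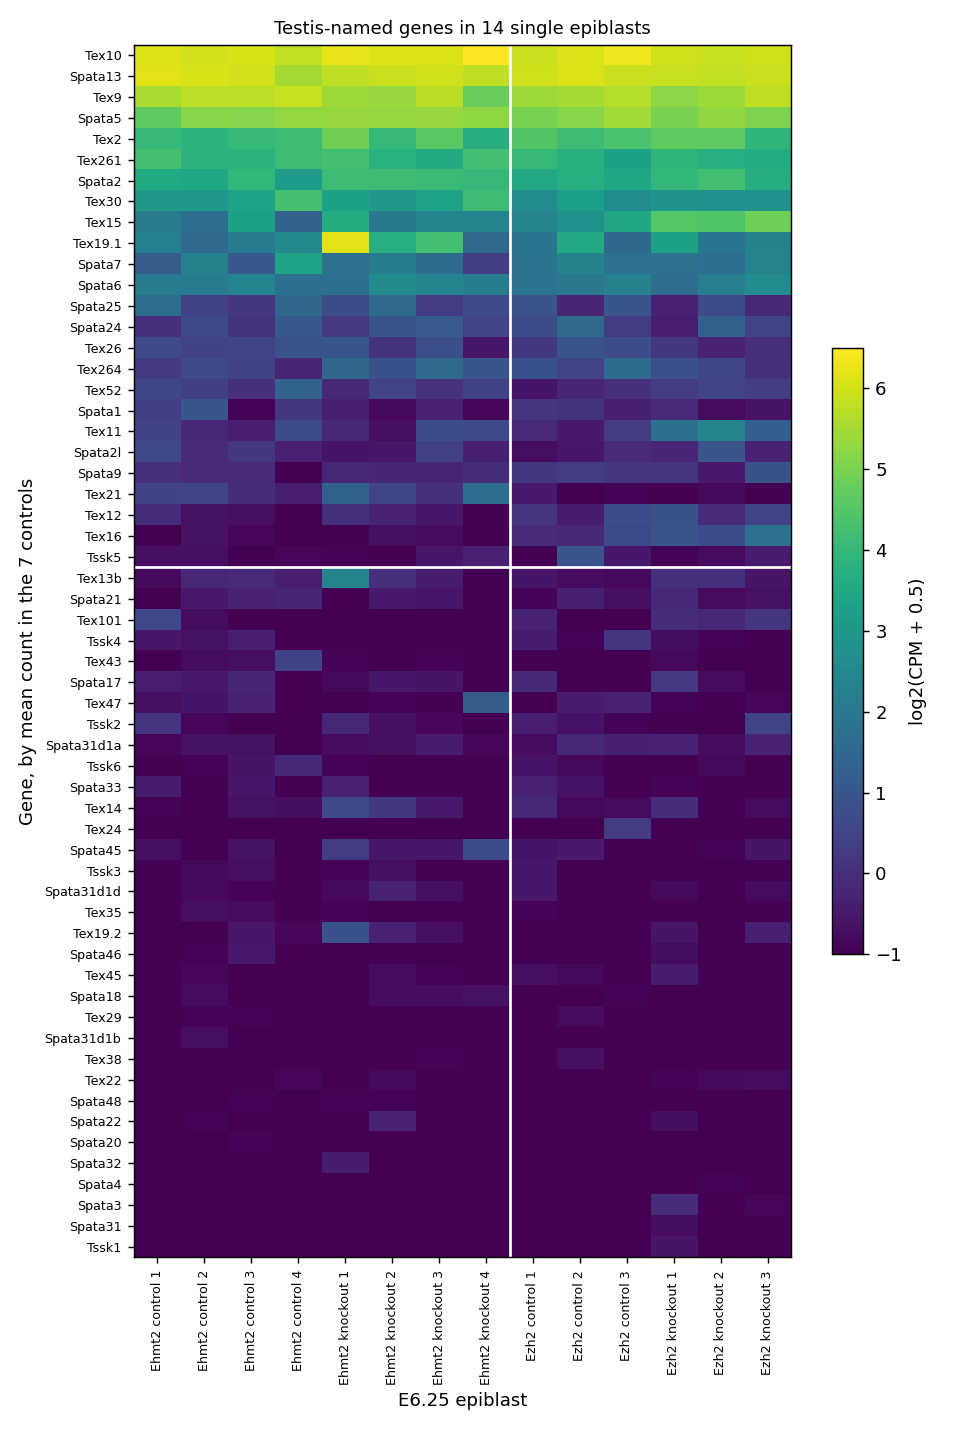
Level of the 58 testis-named genes (rows, ordered by mean count in the 7 controls) in 14 epiblasts (columns), as log2(CPM + 0.5). The horizontal white line divides 25 expressed from 33 silent genes and the vertical one the 2 crosses. Rows from Tex10 to Spata5 are high in every column, while most rows under the line are near the lowest value throughout.

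Several of the highest expressed members have roles in most cells. Levels between genes were compared as CPM per kb of transcript over the 7 controls. Tex10, a subunit of a nucleolar complex that releases ribosome precursors and also a factor of pluripotent cells, stood highest at 21.2 ± 2.57 CPM per kb (SD, n = 7). Tex9 followed at 12.8 ± 1.36 and Spata5, an ATPase of ribosome maturation, at 10.6 ± 1.79 CPM per kb. The ranges of 1 SD around Tex9 and Spata5 overlapped, and that of Tex10 lay above both.

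Spata13 had 8.29 ± 1.17 CPM per kb. Tex30 had 7.23 ± 3.59 CPM per kb, with the widest spread of these genes. Tex261 (4.87 ± 1.05 CPM per kb) and Tex2 (3.52 ± 0.58 CPM per kb) act at the endoplasmic reticulum. Spata25 (2.94 ± 1.8), Spata2 (2.83 ± 0.521) and Tex19.1 (2.68 ± 1.73 CPM per kb) completed the 10 highest and did not differ beyond their spread. The Spata25 value is that of a processed transcript, and its protein-coding transcript had 0 to 10 counts in the 14 epiblasts.

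Part of these counts cannot be assigned to one gene. The strand setting of the counting is not given in the sources used here, and exons of the opposite-strand gene Mns1 cover 72.8% of the Tex9 transcript. Exons of Zswim1 cover 51.5% of Spata25, and those of Gm29247, on the same strand, cover 22.2% of Tex30. Exons of Foxm1 and Gm44596, both on the strand of Tex52, cover 12.6% and 8.46% of the Tex52 transcript. The levels of Tex9, Spata25, Tex30 and Tex52 are therefore uncertain. Close copies, such as Tex19.1 and Tex19.2 or the Spata31d1 genes, may also share reads.

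Promoters of the groups differed in CpG content. RefSeq promoters of 300 bases, from 250 before to 50 after the start on GRCm38.p6, were found for 50 of the 58 members. None was listed for Spata24, Spata2l, Tex11, Tex15, Tex22, Tex24, Tex43 or Tssk5. The median ratio of observed to expected CpG was 0.7 in 20 expressed members and 0.199 in 30 silent members. Over protein-coding genes it was 0.738 in those expressed and 0.285 in those silent by the same boundary, so the members resemble other genes in this respect.

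Sequences of 3 promoters of high, middle and no CpG content are shown, with each CpG in capitals, while the counts of all 50 run from 0 to 48 sites. Spata2, used in every epiblast, has 36 CpG sites, Tex19.1 has 16, and Tex16 has 0. They lie at chr2:167492825-167493124 on the minus strand, chr11:121145893-121146192 on the plus strand and chrX:112093270-112093569 on the plus strand.
Spata2: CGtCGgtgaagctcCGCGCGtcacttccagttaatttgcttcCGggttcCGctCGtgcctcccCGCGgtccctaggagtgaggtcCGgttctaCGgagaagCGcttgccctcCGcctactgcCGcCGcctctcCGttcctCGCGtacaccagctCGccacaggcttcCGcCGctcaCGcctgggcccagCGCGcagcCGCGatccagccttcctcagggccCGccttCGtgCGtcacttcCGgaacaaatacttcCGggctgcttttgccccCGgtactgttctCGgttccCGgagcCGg
Tex19.1: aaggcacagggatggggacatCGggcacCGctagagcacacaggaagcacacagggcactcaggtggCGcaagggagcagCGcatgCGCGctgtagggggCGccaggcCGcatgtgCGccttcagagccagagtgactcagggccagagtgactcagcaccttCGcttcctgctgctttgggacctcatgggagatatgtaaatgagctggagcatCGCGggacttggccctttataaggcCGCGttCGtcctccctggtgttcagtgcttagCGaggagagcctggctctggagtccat
Tex16: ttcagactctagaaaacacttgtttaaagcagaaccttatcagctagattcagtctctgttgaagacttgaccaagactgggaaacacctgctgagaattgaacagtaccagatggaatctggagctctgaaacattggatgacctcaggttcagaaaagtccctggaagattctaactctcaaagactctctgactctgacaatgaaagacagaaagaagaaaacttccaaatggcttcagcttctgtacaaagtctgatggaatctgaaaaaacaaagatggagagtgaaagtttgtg

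There were exceptions in both directions. Spata33 (1.03), Spata17 (0.983), Spata18 (0.851) and Spata22 (0.849) were silent with CpG ratios above that of Tex10 (0.737). Tex16, Spata9 (0.0685) and Tex52 (0.172) were expressed with few CpG sites, though the level of Tex52 is uncertain. The E-box CACGTG was present in 8% of member promoters and in 7.15% of all 32851 promoters in the table. GCGGGAA, a motif bound by E2F factors, was found on either strand in 14% of member promoters, 7 of 50, against 4.6% of all promoters. The 7 were Spata5, Spata22, Tex9, Tex12, Tex14, Tex26 and Tex30.

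**Figure D2:**
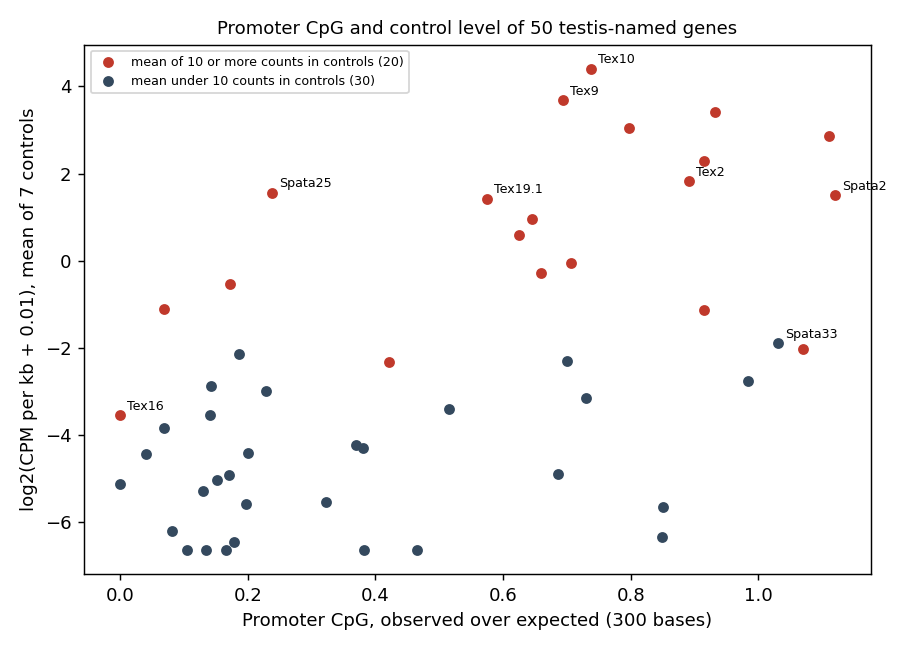
Promoter CpG content (observed over expected in 300 bases) against the control level (log2 of CPM per kb + 0.01, mean of 7 controls) of 50 testis-named genes. Expressed genes (red) have a median ratio of 0.7 and silent genes (dark) of 0.199, with Spata33 silent at 1.03 and Tex16 expressed at 0.

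No member was called in either knockout. A call needed an adjusted p under 0.05 in edgeR's quasi-likelihood test with Benjamini-Hochberg adjustment and a log2 fold change beyond 1.4. In Ehmt2 knockouts 23 members passed the filter on low counts and 0 were called in either direction, while 0.786% of 13749 genes tested were called higher and 0.0655% lower. At an unadjusted p under 0.05 there were 5 members (21.7%), against 15.4% of genes. DESeq2 called 0 members, and its share over all genes was not counted in this cross. In Ezh2 knockouts 25 members were tested and 0 called, with 0% of 14010 genes called higher and 0.00714% lower. At an unadjusted p under 0.05 there were 3 (12%), against 8.89% of genes.

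Results for the Ezh2 cross depended on the tool. DESeq2 called 2 members higher, Tex15 and Tex11, with 0.485% of genes called. A rule that combines each knockout's own p by Fisher's method, modelled on the study's methods, called the same 2 members, with 0.857% of genes called. The median log2 fold change of the members tested was 0.21 in Ehmt2 knockouts, against 0.01 for all genes tested, and 0.00 in Ezh2 knockouts, against 0.03. Only 1 silent member passed the filter in the Ehmt2 cross and 2 in the Ezh2 cross, so these medians describe the expressed members.

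**Figure D3:**
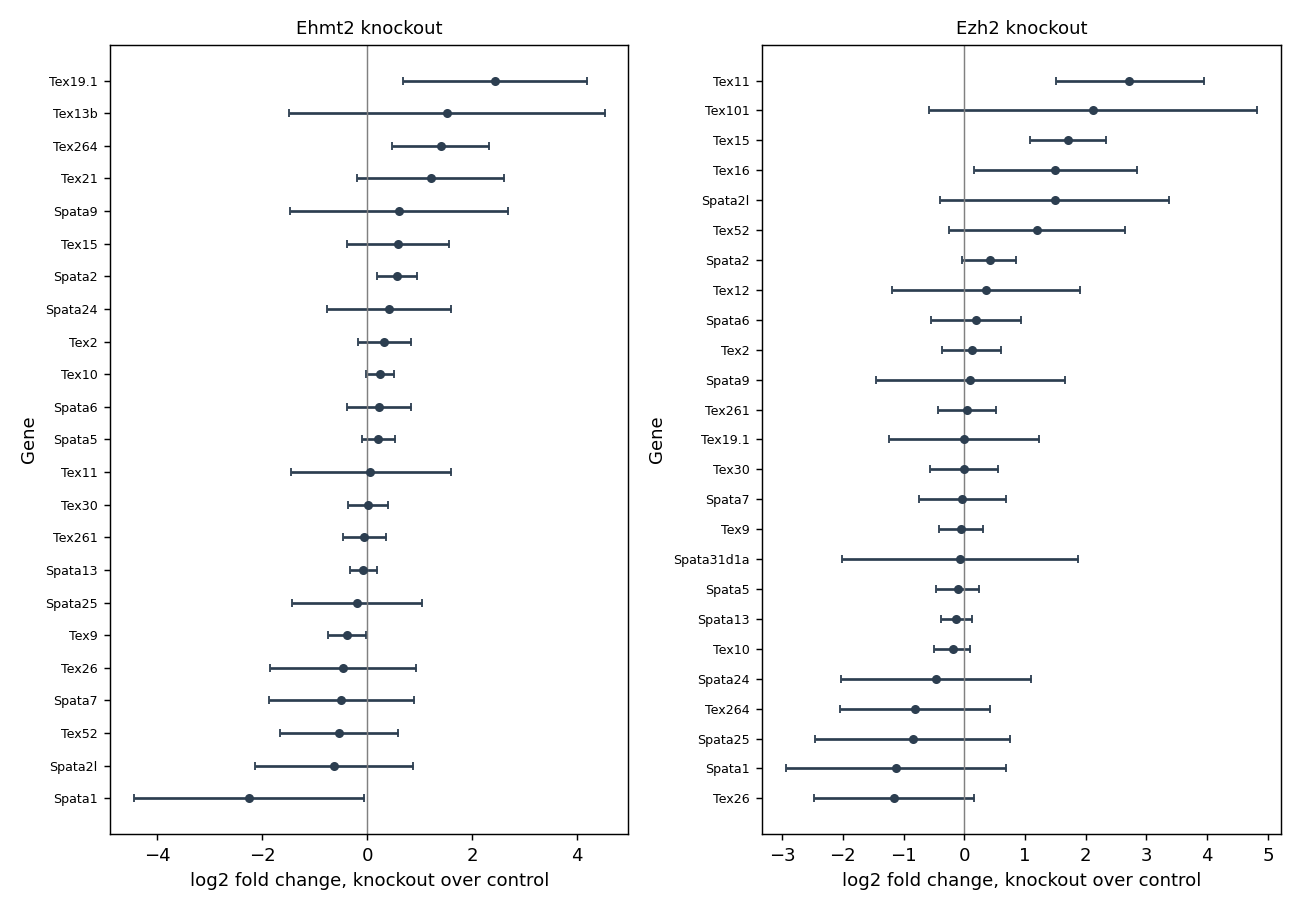
Log2 fold change, knockout over control, of the members tested in each cross (23 in Ehmt2, 25 in Ezh2), with 95% confidence intervals of the edgeR fit. Tex19.1, Tex264 and Spata2 lie right of 0 with their intervals in Ehmt2 knockouts, and Tex11, Tex15 and Tex16 in Ezh2 knockouts.

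Tex15, needed for the silencing of transposons by piRNAs in fetal male germ cells, was the member with the smallest p in Ezh2 knockouts. It had 4.62, 6.67 and 10.8 CPM in the Ezh2 controls and 22.6, 21.7 and 28 CPM in the knockouts. The groups did not overlap, and the lowest knockout exceeded the highest control. The log2 fold change was 1.71 (SE 0.28, 95% interval 1.09 to 2.34), with an adjusted p of 0.161 by edgeR and of 5.07e-07 by DESeq2. Without the filter on low counts the adjusted p by edgeR was 0.0491.

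All 4 listed Tex15 transcripts gave log2 fold changes of 1.70 to 1.93 in the Ezh2 cross, though they share exons. In the Ehmt2 cross the highest of them was 1.68 (adjusted p = 0.279 by edgeR), for a transcript annotated to nonsense-mediated decay. In the Ehmt2 cross Tex15 had 3.73, 2.77, 9.11 and 2.04 CPM in controls and 12, 3.61, 4.72 and 4.69 CPM in knockouts. These groups overlapped, and the log2 fold change was 0.58 (SE 0.45, adjusted p = 0.666 by edgeR). The difference between the crosses was -1.13 (adjusted p = 0.654 by edgeR). Leaving out Ezh2 control 2 and knockout 1 gave a log2 fold change of 1.69 (adjusted p = 0.348 by edgeR).

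Tex11 is an X-linked gene required for meiotic crossovers. It had 0.448, 0.228 and 0.736 CPM in Ezh2 controls and 2.89, 4.63 and 1.86 CPM in knockouts, from 8 to 26 and 71 to 173 counts. Every knockout lay above every control. The log2 fold change was 2.72 (SE 0.55, 95% interval 1.51 to 3.94), with an adjusted p of 0.32 by edgeR and of 0.00138 by DESeq2. In the Ehmt2 cross controls had 0.901, 0.408, 0.267 and 1.12 CPM and knockouts 0.4, 0.116, 1.17 and 1.08 CPM, so the groups overlapped (log2 fold change 0.06, SE 0.70).

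Tex16, also X-linked, had 0.42, 0.399 and 1.1 CPM in Ezh2 controls and 1.4, 1.1 and 2.96 CPM in knockouts. Control 3 and knockout 2 were nearly equal, so the groups touched. The log2 fold change was 1.50 (SE 0.61, adjusted p = 0.671 by edgeR). In the 8 Ehmt2 epiblasts Tex16 had 0 to 6 counts and was not tested there.

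Y-linked transcripts differed between the Ezh2 groups. Their sum was 0.532, 68.4 and 0.566 CPM in controls and 58.8, 70.3 and 75.6 CPM in knockouts, so 1 control and every knockout carried them. Ezh2 control 2, the control with Y-linked transcripts, had 0.228 CPM of Tex11, 0.399 CPM of Tex16 and 6.67 CPM of Tex15. These values lay below each of the 3 knockouts for all 3 genes. That control also held 1240 CPM of visceral endoderm markers. With 1 such control, sex and genotype cannot be well separated here. With Y-linked level as a covariate the log2 fold change was 3.76 for Tex11, 2.14 for Tex16 and 1.84 for Tex15 (adjusted p = 0.838, 1 and 0.87 by edgeR). Tex13b, the other X-linked member, had 2 to 6 counts in Ezh2 controls and 6 to 20 in knockouts and was not tested.

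**Figure D4:**
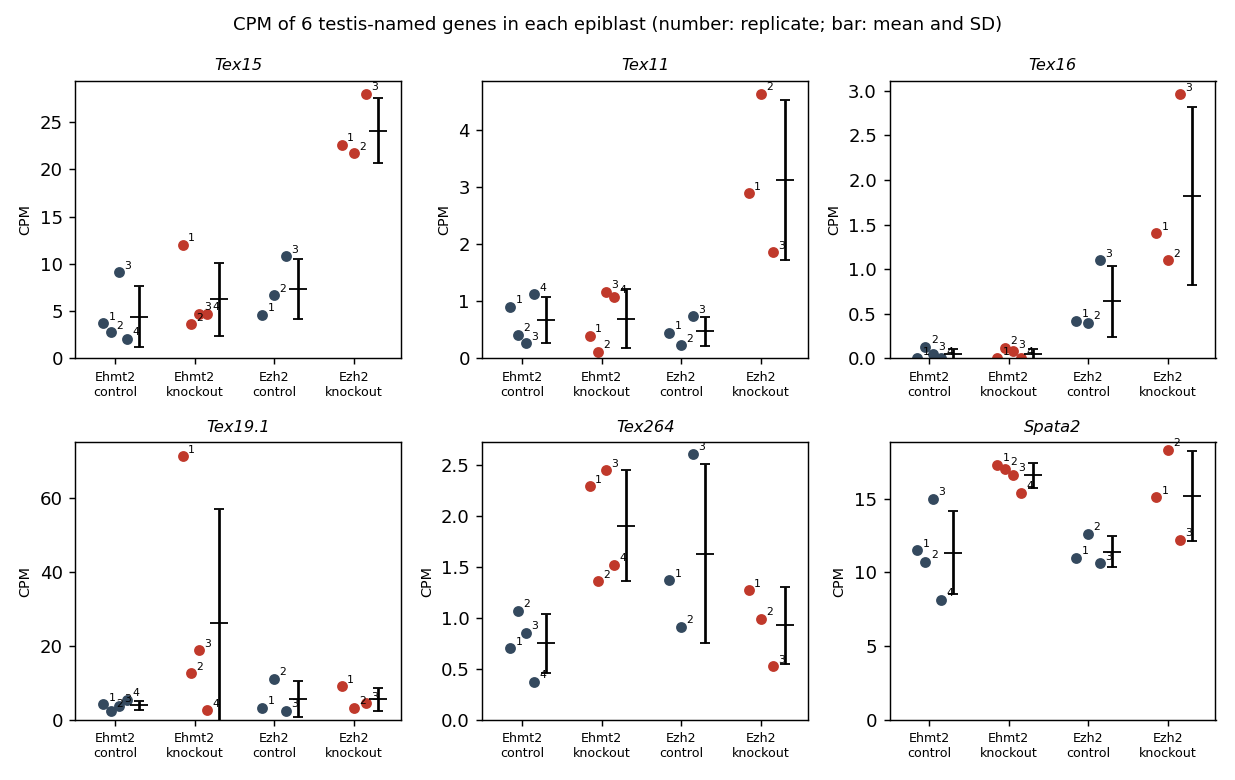
CPM of Tex15, Tex11, Tex16, Tex19.1, Tex264 and Spata2 in each epiblast (dots, numbered by replicate), with group mean and SD (n = 4 per Ehmt2 group, 3 per Ezh2 group). Tex15 and Tex11 have every Ezh2 knockout above every control, and Tex19.1 in Ehmt2 knockouts runs from 2.52 to 71.4 CPM.

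Tex264 and Spata2 were the tested members whose Ehmt2 groups did not overlap on TMM-scaled CPM. On plain library totals Spata2 overlapped and Tex10 did not, while Tex264 stayed separate. Tex264, a receptor for selective autophagy of the endoplasmic reticulum, had 0.701, 1.07, 0.855 and 0.375 CPM in controls and 2.29, 1.36, 2.45 and 1.52 CPM in knockouts. The log2 fold change was 1.4 (SE 0.43, 95% interval 0.48 to 2.33, adjusted p = 0.202 by edgeR), from 20 to 94 counts. Spata2, which links the deubiquitinase CYLD to the linear ubiquitin ligase, had 11.5, 10.7, 15 and 8.13 CPM in controls and 17.3, 17, 16.6 and 15.4 CPM in knockouts (log2 fold change 0.57, SE 0.17, adjusted p = 0.207 by edgeR). Knockout 4 and control 3 of this gene lay within 1 CPM of each other.

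In the Ezh2 cross Tex264 went the other way without separation, at 1.37, 0.913 and 2.61 CPM in controls and 1.27, 0.991 and 0.524 CPM in knockouts. The difference between the crosses was 2.21 on the log2 scale (95% interval 0.79 to 3.64), with an unadjusted p of 0.00457 and an adjusted p of 0.385 by edgeR. Spata2 had 11, 12.6 and 10.6 CPM in Ezh2 controls and 15.1, 18.3 and 12.2 CPM in knockouts. Its log2 fold change there was 0.42 (SE 0.20), and the crosses differed by 0.16 (95% interval -0.39 to 0.70).

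Tex19.1, which restrains retrotransposons in germ cells and placenta, gave the largest fitted increase in Ehmt2 knockouts and the least even one. Controls had 4.21, 2.47, 3.71 and 5.49 CPM and knockouts 71.4, 12.6, 18.8 and 2.52 CPM. Knockouts 1 to 3 lay above every control and knockout 4 lay among the controls. Y-linked transcripts summed to 0.286, 0.318, 0.13 and 76.4 CPM in knockouts 1 to 4. In controls 1 to 4 they summed to 0.426, 54.8, 0.214 and 74.7 CPM, and their relation to Tex19.1 was not tested. The log2 fold change of Tex19.1 was 2.44 (SE 0.81, adjusted p = 0.246 by edgeR). Leaving out control 4 gave 3.30 (adjusted p = 0.0163) and leaving out knockout 4 gave 3.31 (adjusted p = 0.0154 by edgeR). With the set term, either omission leaves the other replicate 4 without weight.

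Markers of extraembryonic ectoderm were also highest in Ehmt2 knockouts 1 to 3 by their mean log2(CPM + 0.5), which was 3.48, 2.51, 2.70 and 0.26 in knockouts 1 to 4 and 0.79, 1.15, 1.23 and 0.49 in controls. By their sum control 2 exceeded knockouts 2 and 3, and Eomes alone had 121 CPM in control 2 against 49.6 and 62.8 CPM. Elf5 had 60.9, 5.87, 12.3 and 0 CPM in knockouts 1 to 4 and 0 to 0.534 CPM in controls (adjusted p = 0.0114 by edgeR). Tfap2c had 26, 7.77, 8.08 and 0 CPM in knockouts and 0.0187 to 1.07 CPM in controls (adjusted p = 0.0119 by edgeR). The source of the Tex19.1 transcript was not tested. The 9 markers summed to 263, 97.3, 122 and 35.5 CPM in Ehmt2 knockouts 1 to 4 and to 31, 136, 75.9 and 56 CPM in controls, and Cdx2, Elf5 and Hand1 were at 0 in both replicates 4. With that mean log2 level as a covariate the log2 fold change of Tex19.1 was -0.70 (adjusted p = 0.409 by edgeR). A change in the number of cells of a type and a change in RNA per cell cannot be told apart in these samples. Its neighbour and copy Tex19.2 had 0, 0, 7 and 2 counts in Ehmt2 controls and 47, 11, 4 and 0 in knockouts. In the Ezh2 cross Tex19.1 had a log2 fold change of 0.00 (SE 0.56).

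Other members with an unadjusted p under 0.05 in Ehmt2 knockouts were lower, each by its 1 transcript. Tex9 had 46.8, 53, 53.9 and 57.7 CPM in controls and 42.8, 40.2, 52.9 and 27.8 CPM in knockouts, groups that overlapped through knockout 3 (log2 fold change -0.39, SE 0.16, adjusted p = 0.38 by edgeR). Spata1 had 32, 70, 1 and 35 counts in controls and 10, 2, 13 and 2 in knockouts (log2 fold change -2.26, SE 1.01, adjusted p = 0.412 by edgeR). The other Spata1 transcript tested was not lower, at 7, 18, 14 and 7 counts in controls and 2, 21, 32 and 7 in knockouts. Its log2 fold change was 0.49 (adjusted p = 0.865 by edgeR), so a decrease of the gene is uncertain. Tex10 and Spata13 showed narrow intervals. For Tex10 they were -0.03 to 0.52 in Ehmt2 and -0.49 to 0.10 in Ezh2 knockouts, and for Spata13 -0.33 to 0.19 and -0.38 to 0.12 on the log2 scale.

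Separation of the groups was counted over all 58 members without a filter. Every Ehmt2 knockout lay above every control for 3 members (5.17%), Tex264, Spata2 and Spata45, against 2.72% of genes listed, and below every control for 0, against 1.86%. Every Ezh2 knockout lay above every control for 5 members (8.62%), Tex15, Tex11, Tex52, Tex101 and Tex22, against 5.9% of genes, and below for 2 (3.45%), Spata13 and Tex26, against 4.79%. With counts scaled by the plain library total, 0 lay below in the Ezh2 cross, and Tex16 joined the members above every control there.

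Some of these separations rested on few counts. Tex22 had 0 counts in each Ezh2 control and 1, 2 and 3 in the knockouts. Tex101, a glycoprotein of germ cells, had 12, 0 and 0 counts in Ezh2 controls and 15, 15 and 24 in knockouts (adjusted p = 0.793 by edgeR), and 40, 4, 0 and 0 in Ehmt2 controls against 0 in all 4 knockouts. Spata45 had 5, 0, 5 and 0 counts in Ehmt2 controls and 26, 7, 7 and 67 in knockouts and did not pass the filter. Tex52 had 6, 13 and 19 counts in Ezh2 controls and 24, 35 and 30 in knockouts (log2 fold change 1.19, SE 0.65, adjusted p = 0.782). Tex26 had 24, 49 and 43 counts in controls and 21, 12 and 19 in knockouts (log2 fold change -1.15, SE 0.59, adjusted p = 0.76).

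The silent members were followed by their counts and their summed level. Under 10 counts in all 14 epiblasts were 15 of the 33, and 18 reached 10 counts in at least 1. Their summed level was 2.04 to 3.31 CPM in Ehmt2 controls and 9.06, 3.41, 1.7 and 3.1 CPM in Ehmt2 knockouts. It was 3.08, 1.94 and 2.27 CPM in Ezh2 controls and 4.5, 1.37 and 2.99 CPM in Ezh2 knockouts. Knockout 1 was highest in each cross, and the other knockouts lay near the controls. These sums can rest on few genes. Tex13b alone gave 4.6 CPM in Ehmt2 knockout 1, and Tex47 and Spata45 gave 1.8 and 1.12 CPM in Ehmt2 knockout 4. A count of 3 corresponds to 0.0501 to 0.0932 CPM in these libraries, so lower levels rest on fewer than 3 counts.

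To keep the choice of silent genes apart from the comparison, silence was also read in the controls of the other cross. Of members silent in the Ezh2 controls, 1 of 34 lay above every control in all Ehmt2 knockouts (Spata45), against 1.97% of such genes. Of those silent in the Ehmt2 controls, 1 of 32 did so in Ezh2 knockouts (Tex22), against 3.31%. Among other silent members, some counts of 10 or more recurred across epiblasts, as for Tex101 and Tex14, and some stood alone. Tex13b had 161 counts in Ehmt2 knockout 1 and 0 to 19 in the other 7 Ehmt2 epiblasts, Tex47 had 108 in Ehmt2 knockout 4 and 0 to 13 elsewhere, and Tex24 had 26 in Ezh2 control 3 and 0 in the other 13.

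Members with germ-line roles ranged widely, from Tex15 and Tex11 above to the genes that follow. Tex14, a component of the bridges between germ cells, had 1, 0, 5 and 5 counts in Ehmt2 controls and 37, 23, 9 and 0 in knockouts, and 0 to 15 in the Ezh2 epiblasts. Tex12, of the central element of the synaptonemal complex, had 22, 9 and 43 counts in Ezh2 controls and 42, 17 and 35 in knockouts, which overlapped. Spata22, a partner of MEIOB in meiotic recombination, had 11 counts in Ehmt2 knockout 2 and 0 to 3 elsewhere. The Tssk kinases, which act in spermatids, reached their highest count, 52, for Tssk5 in Ezh2 control 2. Tssk4 had 8, 6, 10 and 0 counts in Ehmt2 controls and 0 in all 4 knockouts.

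No member's effect was called different between the crosses. Of 33 members tested 0 were called, against 0.112% of 15213 genes, and 6 (18.2%) had an unadjusted p under 0.05, against 10.3%. These were Tex264, Tex101, Tex11, Tex10, Tex52 and Tex19.1. For Tex11 the Ehmt2 effect minus the Ezh2 effect was -2.66 (95% interval -4.65 to -0.67, adjusted p = 0.452), and for Tex10 it was 0.44 (95% interval 0.05 to 0.84, adjusted p = 0.544 by edgeR). DESeq2 called 0 members as well, and its share over all genes was not counted for this difference.

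Known partners of the members were read from a list of 24 genes, of which 23 were listed. In Ehmt2 knockouts 18 were tested, with a median log2 fold change of 0.07, and in Ezh2 knockouts 17, with a median of 0.19. Syce2, a binding partner of Tex12, had 50.2 to 60.9 CPM in Ehmt2 controls and 32.5 to 40.6 CPM in knockouts. Its log2 fold change was -0.62 (SE 0.12, adjusted p = 0.0409 by edgeR), short of the fold threshold, and it was the only partner under that adjusted p in either cross. In the Ezh2 cross Syce2 had 70.3 to 76.9 CPM in controls and 43.1 to 57.3 CPM in knockouts (log2 fold change -0.53, SE 0.13, adjusted p = 0.434 by edgeR).

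Piwil2, a PIWI protein of the piRNA pathway in which Tex15 acts, had 2.05, 0.558, 0.695 and 1.54 CPM in Ehmt2 controls and 8.52, 3.27, 4.88 and 3.67 CPM in knockouts. Every knockout lay above every control (log2 fold change 2.06, SE 0.48, adjusted p = 0.0896 by edgeR). In the Ezh2 cross its groups overlapped, at 4.87, 1.23 and 0.538 CPM in controls and 7.64, 7.88 and 2.07 CPM in knockouts. The crossover factors Msh5 and M1ap, which act in meiosis with Tex11, had log2 fold changes of 1.51 (SE 0.57) and 1.07 (SE 0.40) in Ezh2 knockouts (adjusted p = 0.622 and 0.621 by edgeR). Las1l, Pelp1 and Wdr18, partners of Tex10, had log2 fold changes between -0.24 and 0.19 in both crosses. Cyld, a partner of Spata2, had 0.27 (SE 0.16) in Ehmt2 and 0.17 (SE 0.16) in Ezh2 knockouts.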

How the data were processed

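The deposited values were raw counts per Ensembl transcript of single E6.25 epiblasts. Per the labels and the study's methods, the authors amplified RNA of each epiblast, trimmed the reads, aligned them to GRCm38 with TopHat2 and counted them with HTSeq, without pooling. The counts were not normalized, and a transcript that a file does not list was given 0. In both Ehmt2 replicates 4 a row of unaligned reads (12.6% and 13.3% of the file) was left out of totals and tests.

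Transcripts were matched by identifier to GENCODE vM21, 70021 of 72515 (96.6%). A gene was read through its transcript with the highest mean count. All listed transcripts were fitted with edgeR 4.0.16 (filterByExpr, TMM, glmQLFit, glmQLFTest), and p-values were adjusted by Benjamini-Hochberg over every transcript tested. The Ehmt2 fit had a term for replicates 1 to 3 against replicate 4, and the difference between crosses came from 1 fit of the 14 epiblasts. The called genes given beside the members are counted by that 1 transcript per gene. Levels are CPM on the TMM-scaled total of listed counts, in which a read shared by isoforms counts repeatedly. The scripts were tested on simulated data. DESeq2 1.42.0 and the other alternatives are described at the end. The fold threshold of 1.4 is that of the study, applied here to the group fit. The per-embryo rule is modelled on the study's but uses edgeR and a floor of 5 normalized counts in place of its RPKM floor.

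Members, lists and tests were chosen with earlier results of these data known. Members were named by a rule: those called, those whose groups do not overlap, the 10 highest in controls and X-linked members. The rule also took Tex11 and Tex15, which are in the study's own tables, and a list of well-studied genes of these families. Tex47 and the other genes given for a high count in 1 epiblast, and Tssk4 and Spata45 for their counts, were named after their values were seen. Same-numbered control and knockout epiblasts correlated at 0.0536, 0.11, 0.164 and 0.373 in the Ehmt2 cross and at -0.0016, -0.114 and 0.156 in the Ezh2 cross, so the numbers were not taken as pairs. Which epiblasts shared a litter is not given in the sources used here.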

Additional observations from a re-analysis of the deposited data

Results flagged for a closer look

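Among the 25 expressed members, 3 of 50 groups of 4 Ehmt2 epiblasts (6%) held 1 epiblast far from the others by Dixon's ratio, and chance gives about 1 in 20. Tex15 had 12 CPM in Ehmt2 knockout 1, against 3.61 to 4.72 CPM in the other 3 knockouts. Spata2l had 0.834 CPM in Ehmt2 knockout 3, against 0.171 to 0.284 CPM. Spata9 had 0 CPM in Ehmt2 control 4, against 0.427 to 0.501 CPM in the other 3 controls. No cause was tested.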

How the results depend on the processing

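Calls of single members changed with the tool, the filter on low counts and the epiblasts left out. Among these alternatives, shares over all genes were counted only for DESeq2 and the per-embryo rule in the Ezh2 cross. In Ezh2 knockouts 2 members (Tex11 and Tex15) were higher by DESeq2 and 2 by the per-embryo rule, and 1 (Tex15) without the filter on low counts. In Ehmt2 knockouts leaving out 1 epiblast gave 0 to 1 members higher, and leaving out both replicates 4, chosen after seeing the data, gave 1; the member was Tex19.1. Its log2 fold change there was 3.31 (adjusted p = 0.0171 by edgeR), and it reversed to -0.70 with the extraembryonic ectoderm covariate. The replicate block called 0 members in each direction in both crosses, and RLE, 1 transcript per gene, protein-coding transcripts, no set term, the Y-linked covariate and no fold threshold also called 0. Over all alternatives the log2 fold change in Ezh2 knockouts ran from 1.46 to 2.14 for Tex15 (adjusted p from 5.07e-07 to 0.87) and from 2.08 to 3.76 for Tex11 (0.00138 to 0.838), and in Ehmt2 knockouts from 1.20 to 1.59 for Tex264 (0.0589 to 0.513) and from 0.45 to 0.74 for Spata2 (0.0516 to 0.591).

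Counts of members whose groups do not overlap moved as epiblasts were left out, since fewer samples separate more easily. The share over all genes was not counted in those smaller sets, so these counts are not a result about the members. Leaving out 1 gave 3 to 5 above and 0 to 3 below every control in Ehmt2 knockouts, and 5 to 8 above and 2 to 6 below in Ezh2 knockouts. Leaving out both Ehmt2 replicates 4 gave 6 above and 5 below, and leaving out Ezh2 control 2 and knockout 1 gave 7 above and 7 below. On plain library totals 0 lay below in Ezh2 knockouts, and Tex10 replaced Spata2 among the 3 above every control in Ehmt2 knockouts. The number of silent members was 32 to 33 with 1 control left out. It was 23 with a boundary at 5 counts and 39 with one at 20 counts. In the Ehmt2 and Ezh2 controls alone it was 32 and 34, with partly different members. Depth limits the silent members, of which 13 had a mean under 1 count in controls.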
